A study of Mus musculus with 12 samples.

Results

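The genes described here encode the nuclear subunits of the mitochondrial respiratory chain and of ATP synthase. They were taken by name from the array annotation: every gene with a symbol starting with Nduf and one of the letters a, b, c, s or v before a digit, Uqcr, Cox4 to Cox8 followed by a letter, or Atp5, plus Cyc1 and Cycs. This gave 79 of the 18194 measured genes, each read by its brightest probe set over all arrays. Complex I had 33 of them, complex III 9, complex IV 19 and complex V 17, and Cycs is cytochrome c itself. Ndufs6 and Ndufa11 match the naming rule but share their probe sets with other symbols, and are not analysed here.

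Complex I takes electrons from NADH, complex III passes them from ubiquinol to cytochrome c, and complex IV, cytochrome c oxidase, hands them to oxygen. The protons pumped on the way drive complex V, the ATP synthase. Several complex IV subunits exist as a widespread form and a form of particular tissues such as heart and skeletal muscle, lung or testis. In human and rat prostate, the secretory epithelium is known for exporting citrate rather than oxidizing it.

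Expression was measured in total RNA of mouse prostate lobes at 16 weeks of age on single-colour Affymetrix arrays, with 3 arrays in each of 4 groups. The groups were ventral prostate of Med1 knockout mice (KO_VP), ventral prostate of wild-type mice (WT_VP), lateral prostate of mice labelled Med1 knockout (KO_LP) and lateral prostate of wild-type mice (WT_LP). Med1 encodes a Mediator subunit that nuclear receptors bind to reach RNA polymerase II. No other allele or treatment is named. The labels used here do not state how or in which cells Med1 was deleted, whether animals were pooled, or that arrays came from separate mice, and the p-values therefore rest on a spread that could be technical.

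The median log2 signal of an array was 6.39 to 6.43 for ventral and 6.05 to 6.06 for lateral RNA. Med1 averaged 8.86 ± 0.16 in KO_VP and 9.43 ± 0.12 in WT_VP, a difference of -0.57 ± 0.12 (SE; limma adjusted p = 0.0119). In the lateral lobe it averaged 8.39 ± 0.05 in KO_LP and 8.52 ± 0.26 in WT_LP (-0.13 ± 0.12; limma adjusted p = 0.622), so Med1 signal does not bear out the lateral label, and KO_LP stands throughout for the lateral arrays labelled knockout. Whether its probes lie in the deleted stretch is unknown. The summed linear signal of 7 luminal epithelium markers was 36112 to 37116 in KO_VP, 34883 to 36861 in WT_VP, 22752 to 23839 in KO_LP and 22653 to 24084 in WT_LP. The sum of 6 seminal vesicle genes was 366 to 401 in KO_VP and 383 to 788 in WT_VP, highest in WT_VP replicate 3, and 1703 to 9236 in KO_LP, lowest in replicate 3, against 38925 to 41098 in WT_LP.

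The subunit genes gave strong signal, with group medians over the 79 genes of 11.56 log2 units in KO_VP, 11.49 in WT_VP, 10.97 in KO_LP and 10.98 in WT_LP. Cox7b2, a testis form of complex IV, was the only one with group means (2.10 to 2.50) below the first quartile of probe sets, which was 4.73 for ventral and 4.52 for lateral arrays. Signal depends on the probes as well as on the transcript, so levels of different genes were not ranked. Where a gene had more than 1 probe set with a mean of at least 8, as 37 genes did, all of them gave the same sign for 28 genes in the ventral and 26 in the lateral genotype comparison.

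The first question was whether the subunits differed with Med1 genotype in the ventral lobe. Of the 79 genes, 3 were higher in KO_VP (Cox7a1, Ndufb5 and Cox6c) and 0 were lower, while over all genes 5.88% were called higher and 3.2% lower (limma, adjusted p under 0.05). The other differences were small and mostly positive. The difference was positive in 57 of 79 members, against 45.9% of all genes, and its median was 0.076 log2 units, against -0.020 over all genes. Without the dimmest 40% of genes the median was 0.081 for the members and 0.0145 for all genes kept. All 3 KO_VP arrays read above all 3 WT_VP arrays for 34 members, where the share over all genes was 14.9%, and below them for 7, where it was 14.6%. At an unadjusted p under 0.05 stood 20 of 79 members (25.3%), close to the 24.7% of all genes. The size was small against the error of a single gene: the median standard error was 0.087, and the 95% interval lay within 0.5 log2 units of 0 for 71 of the 79 genes.

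**Figure D1:**
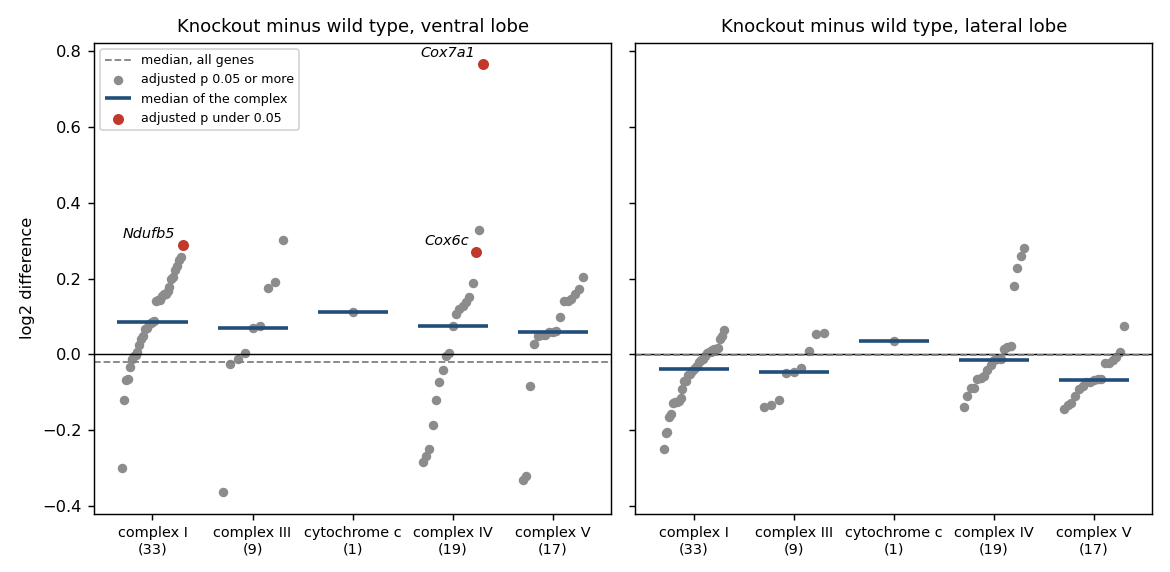
Each point is the log2 difference, knockout minus wild type, of 1 subunit gene, ordered by size within its complex, for the ventral (left) and lateral (right) lobe. Blue bars are medians of the complexes and the dashed line is the median of all genes; red points passed limma's adjusted p under 0.05. In the ventral panel the medians of the complexes lie between 0.060 and 0.11 and 3 points are red; in the lateral panel no point is red.

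Positive differences outnumbered negative ones in each complex. Complex I had 25 of 33 members positive with a median of 0.086, complex III 6 of 9 with 0.070, complex IV 11 of 19 with 0.076 and complex V 14 of 17 with 0.060. Within complex IV, the 11 widespread subunits had a median of 0.12 and the 8 genes grouped here as tissue-type forms one of -0.15. Ndufa4l2 was placed in that group as a paralogue of Ndufa4, not as a form of a given tissue. This split was not tested. Cycs read 11.25 ± 0.08 in KO_VP and 11.14 ± 0.10 in WT_VP, with overlapping arrays.

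Array by array, the median of the members stood 0.075, 0.089 and 0.097 log2 units above the wild-type mean in KO_VP replicates 1, 2 and 3, against -0.019, 0.019 and -0.005 in the WT_VP arrays. The 3 knockout arrays differed in how evenly the genes moved. The range between the quartiles of the members was 0.14 and 0.12 log2 units in KO_VP replicates 1 and 2 but 0.33 in replicate 3, which had 10 members over 0.3 above the wild-type mean and 8 over 0.3 below it. In the WT_VP arrays this range was 0.04 to 0.06, and they are part of the mean they were set against.

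**Figure D2:**
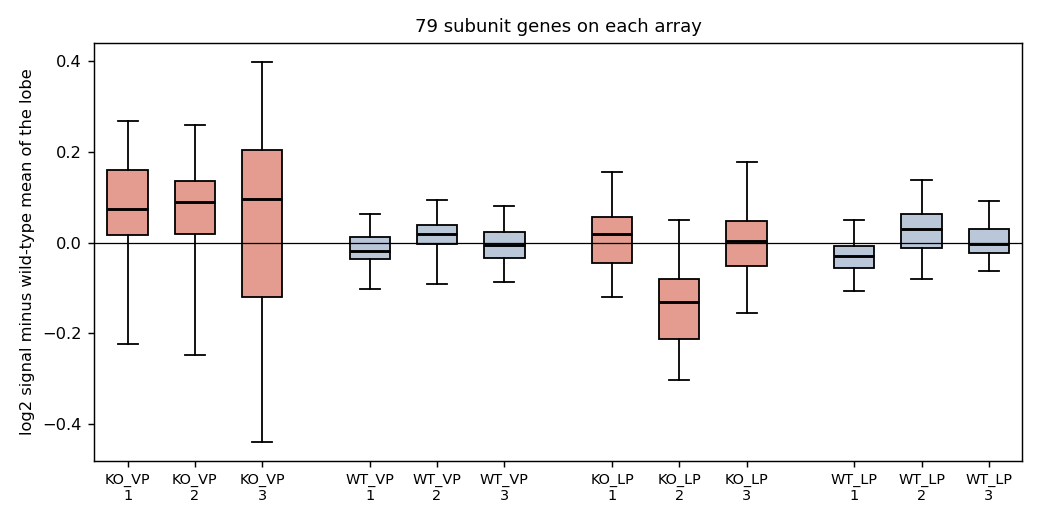
Log2 signal of the 79 subunit genes on each array, minus the wild-type mean of the same gene in the same lobe; boxes span the quartiles, the bar is the median and whiskers reach the 5th and 95th percentiles. The medians of the KO_VP arrays (0.075 to 0.097) lie above those of the WT_VP arrays, KO_VP replicate 3 is the widest box, and KO_LP replicate 2 lies lowest at -0.13.

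Cox7a1, the heart and skeletal muscle form of complex IV subunit VIIa, had by far the largest difference among the members. It read 7.12, 6.77 and 6.95 in KO_VP and 6.0, 6.41 and 6.13 in WT_VP, then 6.08, 6.03 and 6.05 in KO_LP and 5.97, 6.09 and 6.04 in WT_LP. The ventral knockout arrays stood apart from all 9 others. The ventral rise was 0.77 ± 0.11 (SE; 95% interval 0.53 to 1.01; 1.70-fold; limma adjusted p = 0.00078), and it passed under each of the 21 alternatives tried. Cox7a1 has 1 probe set. Its widespread counterpart Cox7a2 read 12.54 ± 0.04 in KO_VP and 12.35 ± 0.04 in WT_VP, without overlap, a difference of 0.19 ± 0.08 that did not pass (limma adjusted p = 0.148).

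Signals of other cells were set beside the rise of Cox7a1, because muscle and brown fat are known to express it. Of 10 smooth muscle markers, 7 were higher in KO_VP than in WT_VP and 0 were lower (limma; median 0.46), with summed linear signals of 21460 to 25206 in KO_VP and 15698 to 18278 in WT_VP. In WT_LP, where Cox7a1 read 6.04, the sum was 32727 to 34622 as deposited. Each lobe seems to have had its own normalization run, so levels of different lobes cannot be compared directly. Of 10 skeletal muscle markers, 1 was higher and 3 were lower in KO_VP, and their sum was 1651 to 1759 in KO_VP and 1300 to 1590 in WT_VP. Of 4 brown fat markers, 1 was higher and 0 were lower in KO_VP (limma; median -0.067). Dio2, a deiodinase found in brown fat and elsewhere, rose by 0.93 (limma adjusted p = 0.00559). Ucp1, which lay between 4.72 and 5.01 on every array, Cidea and Elovl3 differed by -0.09, -0.05 and -0.10. Of 7 fibroblast markers, 5 were higher and 0 lower, and of 6 prostate secretory genes 0 were higher and 4 lower. In RNA of whole lobes, fewer cells of a type and less RNA per cell cannot be told apart, and the part of these cells in the subunit values was not tested.

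Ndufb5, an accessory subunit of the membrane arm of complex I, read 12.08, 12.08 and 12.25 in KO_VP and 11.87, 11.91 and 11.77 in WT_VP. The groups did not overlap, and the rise was 0.29 ± 0.08 (SE; limma adjusted p = 0.0411). Cox6c, a small nuclear-encoded subunit of complex IV, read 12.77, 12.75 and 12.62 in KO_VP and 12.47, 12.45 and 12.41 in WT_VP, also without overlap, a rise of 0.27 ± 0.08 (SE; limma adjusted p = 0.0498). Both calls lie close to the threshold: Ndufb5 passed under 9 of the 21 alternatives and Cox6c under 6. A second probe set gave 0.19 for Ndufb5 and 0.26 for Cox6c.

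**Figure D3:**
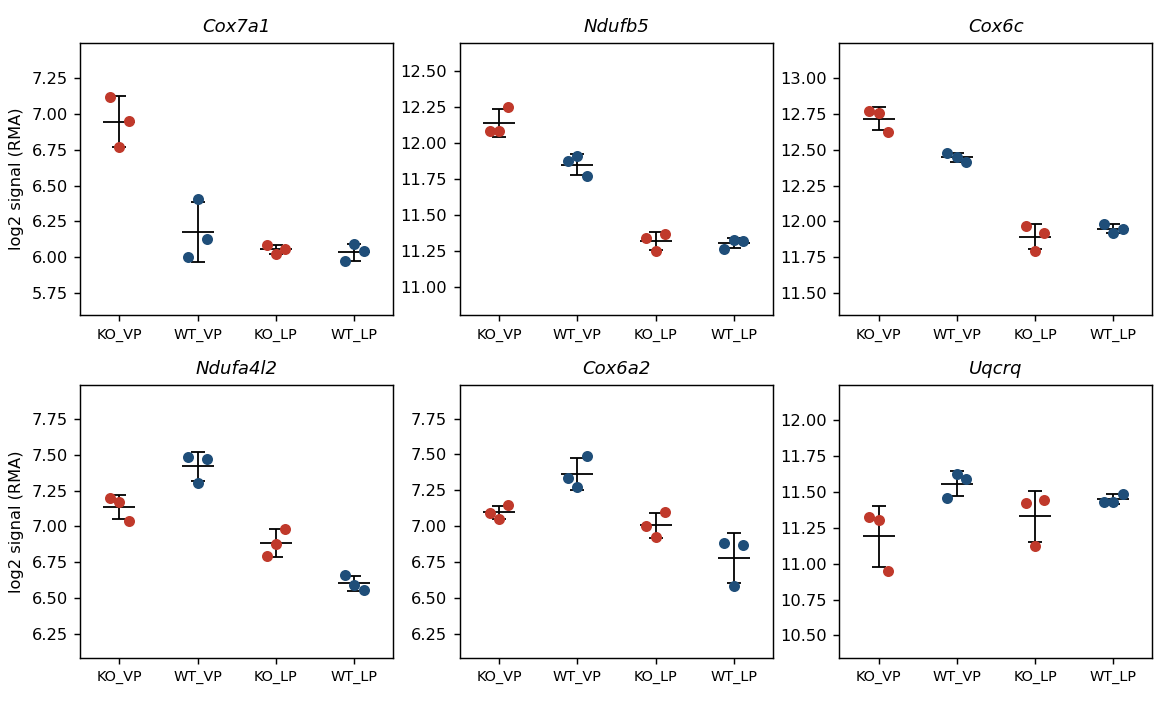
Log2 signal of 6 subunit genes on the 12 arrays, knockout in red and wild type in blue; horizontal bars are group means and error bars SD (n = 3). Every panel spans 1.9 log2 units. Cox7a1 is high in KO_VP alone, Ndufb5 and Cox6c are higher in KO_VP than in WT_VP by under 0.3, Ndufa4l2 and Cox6a2 are below wild type in the ventral and above it in the lateral lobe, and KO_VP replicate 3 is the lowest array for Uqcrq.

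Next in size among the positive differences that did not pass were Cox6b2, a testis form of complex IV subunit VIb (0.33 ± 0.12; limma adjusted p = 0.117), and Uqcrc2, core protein 2 of complex III. Uqcrc2 read 11.90, 11.77 and 12.03 in KO_VP and 11.61, 11.65 and 11.54 in WT_VP (0.30 ± 0.10; limma adjusted p = 0.0665). The complex I accessory subunits Ndufc1 and Ndufb8 differed by 0.26 and 0.25. Each of these 4 genes, picked for a large positive difference, had every KO_VP array above every WT_VP array, as had 14.9% of all genes.

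The 6 largest negative differences did not pass, and KO_VP replicate 3 was the lowest array for all of these genes but Cox6a2. Uqcrq, a small subunit of complex III, read 11.32, 11.30 and 10.95 in KO_VP and 11.46, 11.62 and 11.59 in WT_VP (-0.36 ± 0.11; limma adjusted p = 0.0625). Its probe set is of the type that can match several transcripts, and without such probe sets the difference, read by a dimmer one, was -0.000273 (limma adjusted p = 0.999). Uqcrq and Ndufa4l2 were each called lower under 4 of the 21 alternatives. Atp5g1, Atp5g2 and Atp5g3 encode the same mature c subunit of the ATP synthase rotor behind different import peptides. Atp5g1 read 11.17, 11.12 and 10.56 in KO_VP and 11.24, 11.34 and 11.26 in WT_VP, and Atp5g2 read 11.03, 11.00 and 10.43 in KO_VP and 11.07, 11.22 and 11.13 in WT_VP. Atp5g3 did not share the low replicate 3 and read 12.25, 12.26 and 12.35 in KO_VP and 12.18, 12.11 and 12.14 in WT_VP. The differences were -0.33 for Atp5g1, -0.32 for Atp5g2 and 0.14 for Atp5g3. With the mean of a gene's probe sets, others of which are dim, Atp5g1 differed by -0.20 and Atp5g2 by -0.06. Ndufb4, an accessory subunit of complex I, read 5.84, 5.83 and 5.42 in KO_VP and 5.97, 6.0 and 6.02 in WT_VP, a difference of -0.30 ± 0.12 (limma adjusted p = 0.125). Without KO_VP replicate 3 the differences were -0.14 for Atp5g1, -0.13 for Atp5g2, -0.24 for Uqcrq and -0.16 for Ndufb4.

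Promoters of 4 members are shown to set the tissue-type subunit that rose, Cox7a1, beside its widespread counterpart Cox7a2, the complex I gene that passed, Ndufb5, and Cox6a1, the widespread form of subunit VIa, whose window holds patterns common in this family. Windows run from 250 bases before to 50 bases after the gene start and are from RefSeq on GRCm38.p6: Cox7a1 at chr7:30183921-30184220, plus strand; Cox7a2 at chr9:79759804-79760103, minus strand; Ndufb5 at chr3:32736813-32737112, plus strand; Cox6a1 at chr5:115348909-115349208, minus strand. Capitals mark matches to the 4 patterns given after the sequences.
Cox7a1: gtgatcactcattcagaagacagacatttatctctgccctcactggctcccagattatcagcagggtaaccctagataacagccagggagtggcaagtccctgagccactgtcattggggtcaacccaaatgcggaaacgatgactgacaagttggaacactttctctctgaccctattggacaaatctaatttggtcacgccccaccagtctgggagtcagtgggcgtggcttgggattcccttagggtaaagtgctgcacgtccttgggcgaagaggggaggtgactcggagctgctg
Cox7a2: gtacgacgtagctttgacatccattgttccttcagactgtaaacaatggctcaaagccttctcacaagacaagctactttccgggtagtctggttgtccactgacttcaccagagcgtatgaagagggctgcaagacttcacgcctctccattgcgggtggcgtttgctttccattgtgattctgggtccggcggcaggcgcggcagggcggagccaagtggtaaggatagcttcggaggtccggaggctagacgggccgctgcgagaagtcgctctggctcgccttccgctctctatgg
Ndufb5: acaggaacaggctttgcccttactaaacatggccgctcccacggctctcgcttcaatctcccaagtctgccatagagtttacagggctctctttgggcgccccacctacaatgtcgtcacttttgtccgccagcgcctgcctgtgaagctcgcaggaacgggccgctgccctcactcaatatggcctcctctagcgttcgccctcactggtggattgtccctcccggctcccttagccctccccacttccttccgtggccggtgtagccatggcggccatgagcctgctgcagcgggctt
Cox6a1: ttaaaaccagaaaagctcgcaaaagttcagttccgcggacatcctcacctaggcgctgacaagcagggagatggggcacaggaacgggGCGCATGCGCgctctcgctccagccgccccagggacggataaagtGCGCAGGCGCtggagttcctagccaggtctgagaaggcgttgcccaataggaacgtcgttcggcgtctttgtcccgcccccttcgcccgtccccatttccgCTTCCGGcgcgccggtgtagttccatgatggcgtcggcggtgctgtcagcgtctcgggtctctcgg
Windows were at hand for 64 of the 79 members, 69 in all. The pattern GCGCA, any base, GCGC, of the type bound by NRF1, a known activator of respiratory genes, was found on either strand in 20.3% of the member windows and 4.6% of all 32851 windows. CCGGAAG, the core read by ETS factors such as GABP, was in 21.7% and 8.86%, AAGATGGCG, of the YY1 type, in 8.7% and 1.4%, and AAGGTCA, a site of estrogen-related receptors, in 10.1% and 4.72%. The ETS and YY1 patterns can share their AAG. Member windows were richer in G and C (median 57.7%) than all windows (52.7%). Cox6a1 held 3 matches, 2 of the NRF1 type and 1 ETS core. Those of Cox7a1, Cox7a2 and Ndufb5 held 0, which says only that these letters are not in these windows.

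The same question in the lateral lobe gave no call. Of the 79 members, 0 passed between KO_LP and WT_LP, against 1.62% of all genes called higher and 3.42% called lower (limma, adjusted p under 0.05), and 4 were at an unadjusted p under 0.05 (5.06%, against 19.5% of all genes). The 95% interval of all 79 differences lay within 0.5 log2 units of 0. Positive differences numbered 23 and negative ones 56, against 49.4% and 50.6% of all genes, with a median of -0.041, against -0.0025 over all genes. One array moved with this count. In KO_LP replicate 2 only 7 of 79 members read above the WT_LP mean and their median was -0.13, whereas 46 and 40 did in replicates 1 and 3, and without replicate 2 the median was 0.0041. Joint quantile normalization gave a median of 0.023. Without the dimmest 40% of genes the median was -0.040 for the members and -0.045 for all genes kept.

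Genes of the tissue-type group of complex IV had the largest positive lateral differences. Ndufa4l2, a paralogue of the complex IV subunit Ndufa4 known as a target of hypoxia-inducible factor, read 6.79, 6.88 and 6.98 in KO_LP and 6.66, 6.59 and 6.56 in WT_LP (0.28 ± 0.09, SE; limma adjusted p = 0.0836). Cox8b, the heart and skeletal muscle form of subunit VIII in rodents, read 5.81, 6.18 and 6.17 in KO_LP and 5.75, 5.89 and 5.73 in WT_LP (0.26 ± 0.11). Cox6a2, the muscle form of subunit VIa, read 7.0, 6.92 and 7.10 in KO_LP and 6.88, 6.58 and 6.87 in WT_LP (0.23 ± 0.10). The arrays did not overlap for Ndufa4l2 and Cox6a2 and did for Cox8b. The largest negative difference was that of Ndufa9, an accessory subunit of complex I, at -0.25 ± 0.10 (limma adjusted p = 0.186). Beside these values, 2 of 10 skeletal muscle markers were higher and 1 lower in KO_LP, 4 of 10 smooth muscle and 4 of 7 fibroblast markers were lower, and 4 of 6 seminal vesicle genes were lower. Their part in the subunit values was not tested.

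The genotype effects of the lobes were then set against each other directly, as the ventral minus the lateral difference. It passed for 3 members, 1 higher and 2 lower, against 6.51% and 2.8% of all genes (limma, adjusted p under 0.05). All 3 are in the tissue-type group of complex IV, where Ndufa4l2 was placed as a paralogue. Cox7a1 had a difference of effects of 0.75 ± 0.16 (SE; limma adjusted p = 0.00876). Ndufa4l2 read 7.20, 7.17 and 7.04 in KO_VP and 7.48, 7.30 and 7.47 in WT_VP, thus -0.29 ± 0.09 in the ventral lobe (limma adjusted p = 0.0568) against 0.28 in the lateral lobe, and the difference of effects was -0.57 ± 0.12 (limma adjusted p = 0.0105). Cox6a2 read 7.09, 7.05 and 7.14 in KO_VP and 7.34, 7.27 and 7.49 in WT_VP, thus -0.27 ± 0.10 in the ventral lobe, and its difference of effects was -0.50 ± 0.14 (limma adjusted p = 0.0396). That of Cox6a2 passed under 11 of 20 alternatives, that of Ndufa4l2 under 19 and that of Cox7a1 under all 20. Over the 79 members the difference of effects was positive for 65, against 47.2% of all genes. Its median was 0.13, against -0.021 over all genes. Without the dimmest 40% of genes the median was 0.13 for the members and 0.054 for all genes kept.

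The other genes of the tissue-type group were Cox4i2 (lung), Cox8b, Cox6b2, Cox7b2 and Cox8c (testis). None of them passed in either lobe or in the difference of effects, though Cox8b passed as lower in the latter without KO_LP replicate 1. Cox4i2 averaged 7.10 ± 0.09 in KO_VP, 7.29 ± 0.10 in WT_VP, 7.17 ± 0.11 in KO_LP and 7.18 ± 0.33 in WT_LP. Cox8c averaged 6.47 ± 0.02 in KO_VP, 6.36 ± 0.18 in WT_VP, 6.31 ± 0.03 in KO_LP and 6.29 ± 0.05 in WT_LP.

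Genes that serve the same machinery without being members were read from lists. The adenine nucleotide translocators carry ATP out of the mitochondrion, and Slc25a4 is the form of heart and skeletal muscle. Slc25a4 read 11.06, 10.89 and 11.18 in KO_VP and 10.35, 10.34 and 10.51 in WT_VP, and 10.86, 10.67 and 10.76 in KO_LP and 11.07, 11.12 and 11.09 in WT_LP. Knockout arrays lay above wild type in the ventral and below it in the lateral lobe, without overlap. The ventral rise was 0.64 ± 0.09 (SE; limma adjusted p = 0.000754), the lateral difference of -0.33 ± 0.09 did not pass (limma adjusted p = 0.0579), and the difference of effects was 0.97 ± 0.13 (limma adjusted p = 0.000468). The phosphate carrier Slc25a3 rose by 0.29 (limma adjusted p = 0.0309), and of the 6 carriers and outer membrane channels listed these 2 were the ones that passed.

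Of 4 subunits of complex II, the chain's succinate dehydrogenase, 4 were positive in the ventral lobe and 0 passed (median 0.19), and the difference of effects passed for Sdhb (0.44 ± 0.12; limma adjusted p = 0.0306). Assembly factors rose singly: Ndufaf7 of complex I by 0.41 (limma adjusted p = 0.0206; 1 of 15 on its list) and Uqcc1 of complex III by 0.38 (limma adjusted p = 0.0264; 1 of 6). Of 17 complex IV factors and 4 of ATP synthase, 0 passed in either genotype comparison. The difference of effects passed as higher for 1 of 15 genes on the complex I list and 1 of 17 complex IV factors. It passed for 0 of the 6 complex III and 4 ATP synthase factors, against 6.51% of all genes called higher. Among 14 regulators of mitochondrial biogenesis, Tfam, which packages mitochondrial DNA and starts its transcription, rose by 0.46 (limma adjusted p = 0.0403), and Pprc1, a coactivator of the PGC-1 family, fell by 0.49 (limma adjusted p = 0.00797). Mitochondrial ribosomal proteins had a ventral median of 0.021, with 1 of 76 higher and 2 lower, and cytosolic ribosomal proteins one of -0.015, with 0 of 50 called.

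Levels in the 2 lobes were compared last, with the caution that each lobe seems to have had its own normalization run: sorted values had a median range of 0.049 among ventral and 0.079 among lateral arrays, but of 0.39 over all 12. Separate runs are inferred from these ranges alone, and if there were any, lobe and run cannot be told apart in the deposited values. As deposited, 1 member was higher and 57 were lower in WT_LP than in WT_VP, against 12.3% and 55.8% of all genes (limma, adjusted p under 0.05), with a median of -0.39 against -0.34 over all genes. Between KO_LP and KO_VP, 1 was higher and 60 lower, against 14.2% and 53.1%, with a median of -0.50 against -0.31. With all arrays quantile-normalized together, the knockout median was -0.04 against 0.08 over all genes, with 17 members higher and 25 lower (35.5% and 26.9% of all genes). The wild-type median was then 0.020 against 0.05, with 23 higher and 13 lower (31.7% and 25.7% of all genes). With each array centred on its median, the knockout median was -0.14 against 0.05, with 12 higher and 34 lower (34.9% and 31.4% of all genes). The wild-type median was then -0.028 against 0.02, with 14 higher and 23 lower (30.6% and 28.9% of all genes). The sign of the median was negative under all 3 scalings in knockout arrays and depended on the scaling in wild-type arrays. In both genotypes the median of the members lay below that of all genes under each scaling. This did not hold for the deposited values without the dimmest 40% of genes. The wild-type median of the members was then -0.396 against -0.455 for the genes kept, and the knockout one -0.508 against -0.514.

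**Figure D4:**
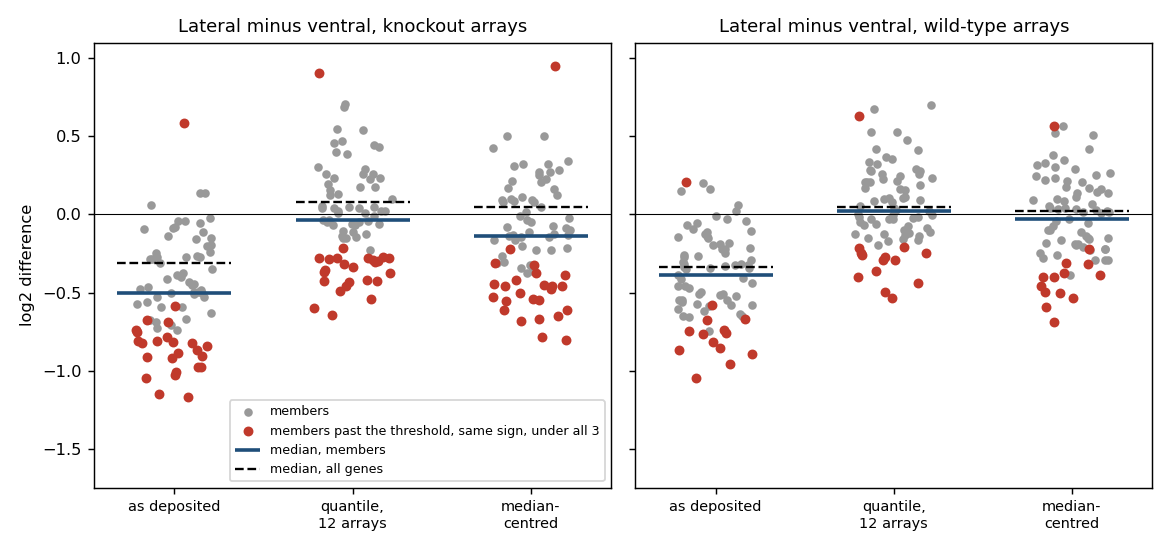
Log2 difference between lobes, lateral minus ventral, of the 79 subunit genes in knockout (left) and wild-type (right) arrays under 3 scalings. Blue bars are medians of the members, dashed lines medians of all genes, and red points passed limma's adjusted p under 0.05 with the same sign under all 3 scalings (25 genes in knockout and 14 in wild-type arrays); horizontal scatter is arbitrary.

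Some members kept their direction under all 3 scalings. In wild-type arrays 13 were lower in the lateral lobe each time (16.5%, against 23.7% of all genes) and 1 was higher (against 12.3%). In knockout arrays 24 were lower (30.4%, against 24.5%) and 1 was higher (against 14.2%). Lower in both genotypes under all 3 scalings were 12 members (15.2%, against 18.2% of all genes). They included Uqcrfs1, the Rieske iron-sulfur protein of complex III, Atp5pb, the b subunit of the ATP synthase stalk, and the accessory complex I subunit Ndufs4. Uqcrfs1 averaged 9.10 ± 0.12 in KO_LP against 10.26 ± 0.10 in KO_VP, and 9.23 ± 0.07 in WT_LP against 10.27 ± 0.08 in WT_VP. Its wild-type difference was -1.05 as deposited, -0.50 after joint quantile normalization and -0.69 after centring. Atp5pb differed by -0.95, -0.44 and -0.60 under the same scalings, and Cox7c, the subunit VIIc gene, by -0.89, -0.53 and -0.54. The wild-type exception was Atp5d, the delta subunit of ATP synthase, at 12.07 ± 0.06 in WT_LP and 11.86 ± 0.04 in WT_VP, higher by 0.21, 0.63 and 0.57. The knockout exception was Cox8b, higher in KO_LP than in KO_VP by 0.59, 0.90 and 0.95. Cox7a1 was lower in KO_LP than in KO_VP by each scaling, at -0.89, -0.49 and -0.53.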

How the data were processed

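The authors deposited log2 expression values, computed by RMA in Affymetrix Expression Console per the submitters' processing notes, which give no versions.

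Of 45101 probe sets, 34958 had 1 gene symbol in the platform annotation, 932 several and 9211 none listed. Symbols were updated through Entrez identifiers (34754 matched), and the brightest probe set of each of 18194 genes was kept. The 79 members had 160 such probe sets.

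Tests used limma 3.58.1 (R 4.3.3) with 4 group means over 12 arrays (8 residual and 5.68 prior degrees of freedom), with Benjamini-Hochberg adjustment over all genes and a threshold of 0.05. The fit was tested on simulated data. Whether equal replicate numbers mark paired samples is not stated. Deviations of such arrays from their group means had correlations from -0.06 to 0.12, which with 3 arrays a group does not settle it. The main fit leaves pairing out. A replicate block is an alternative, as are other scalings, filters, probe-set rules, variance models and each array left out.

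The members and lists were chosen with earlier results of these data known. Members named were those past the threshold, the 6 largest rises and falls per genotype comparison, lobe extremes and tissue-type forms with counterparts; lists name up to 4 genes past the threshold. Only part of these are described, and others were picked after their values were seen. S6 kinases were dropped from the ribosomal list. Number of arrays limits the precision.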

Additional observations from a re-analysis of the deposited data

Results flagged for a closer look

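The genotype effect differed between lobes, by the test of that difference in limma, for 3 subunit genes. All are in the group taken here as tissue-type forms of complex IV, where Ndufa4l2 was placed as a paralogue. For Cox7a1 the ventral minus lateral difference of effects was 0.7472 log2 units, with 3 of 3 KO_VP arrays above every WT_VP array and the lateral groups overlapping. For Ndufa4l2 it was -0.5666 and for Cox6a2 -0.4979. In both of these genes 3 of 3 KO arrays lay below wild type in the ventral lobe and 3 of 3 lay above it in the lateral lobe. These shifts moved beside markers of other cells: the difference of effects passed as higher for 9 of 10 smooth muscle, 5 of 7 fibroblast, 3 of 4 basal epithelium and 4 of 6 seminal vesicle markers, and as lower for 4 of 6 prostate secretory and 2 of 5 urothelium genes. Of 10 skeletal muscle markers 2 passed as higher and 2 as lower. Their part in these results was not tested. Groups of 3 arrays are too small for a test of outlying arrays.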

How the results depend on the processing

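The 3 members called in the ventral genotype comparison became 1 with the ventral arrays alone and with the replicate block, which treats equal numbers as paired. Whether they are is not stated, and Cox7a1 was the gene left. The count was also 1 without both WT_VP replicate 3 and KO_LP replicate 3 (added after seeing the data). The calls numbered 7 after joint quantile normalization and, of the 76 members kept, 8 without the dimmest 40% of genes. They numbered 6 with the mean of a gene's probe sets and 10 with a mean-dependent prior. These include lower calls: Uqcrq after quantile normalization and with the prior, Ndufa4l2 with the mean of probe sets, and both without the dimmest genes. Centring kept 3 calls, with Ndufa4l2, lower, in place of Cox6c. Ndufa4l2 without WT_VP replicate 2 and Uqcrq without KO_LP replicate 2 were also called lower. Leaving out 1 array gave 1 to 4, and the count was 1 without WT_VP replicate 1 or 3, KO_VP replicate 1, any WT_LP array or KO_LP replicate 3. Cox7a1 was among the genes called under every alternative. The calls over all 18194 genes moved as well. They were 1069 higher and 583 lower in the main fit, 648 and 317 with the ventral arrays alone, and 984 and 508 with the block. Quantile normalization gave 961 and 596, the mean of probe sets 1020 and 686, and the mean-dependent prior 1194 and 698. Without the dimmest genes 1125 and 634 of 10916 genes were called. The ventral median kept its sign under all 21 alternatives, at 0.0941 after quantile normalization and 0.0729 to 0.101 with 1 array left out; against the median of all genes it stood 0.067 to 0.12 higher. The lateral count was 1 (Ndufa4l2) after quantile normalization, 0 under the rest and 0 to 0 with 1 array left out, and the lateral median was -0.0688 to 0.00412. The difference of effects passed for 2 to 3 members with 1 array left out. Without KO_LP replicate 1, Cox8b was called lower in place of Cox6a2. With the mean-dependent prior it passed for 4, Cox6c being called higher as well. Without both WT_VP replicate 3 and KO_LP replicate 3 it passed for 1, Cox7a1, and Ndufa4l2 stood at -0.49 (limma adjusted p = 0.0738). The wild-type lobe count was 36 after quantile normalization, 37 after centring and 51 to 60 with 1 array left out, and the knockout one, 61 as deposited, was 42, 46 and 58 to 64. Lateral genotype differences near 0 changed sign: Cox6c to 0.003999 (quantile) and 0.04192 (mean of probe sets), Cox7a1 to -0.01229 and Ndufb5 to -0.005917 without WT_LP replicate 1, and Ndufb5 to -0.01028 without KO_LP replicate 3, alone or with WT_VP replicate 3. With 1 array left out these ranged from -0.01229 to 0.04757 for Cox7a1 and from -0.01028 to 0.04797 for Ndufb5. Causes were not tested. The number of arrays, 3 a group, limits what single genes can show.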

Other observations

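ND5, a complex I subunit encoded in mitochondrial DNA and the only such gene described here, was picked after its values had been seen and is listed under a symbol the list of such genes did not hold. It read 13.11, 13.20 and 13.16 log2 units in KO_VP and 13.21, 13.05 and 13.17 in WT_VP, a difference of 0.02 ± 0.08 (SE; limma adjusted p = 0.926), and the groups overlapped. In the lateral lobe it read 12.81, 12.80 and 12.88 in KO_LP and 12.72, 12.67 and 12.61 in WT_LP, without overlap, a difference of 0.16 ± 0.08 that did not pass (limma adjusted p = 0.268).

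Ppargc1a encodes PGC-1alpha, a coactivator known to drive respiratory genes in muscle and brown fat. It read 8.25, 7.97 and 8.28 in KO_VP and 7.95, 7.63 and 7.50 in WT_VP (0.48 ± 0.14; limma adjusted p = 0.0513), and 5.86, 5.73 and 6.09 in KO_LP and 5.28, 5.48 and 5.69 in WT_LP (0.41 ± 0.14; limma adjusted p = 0.119). Neither difference passed. The lobes were far apart: WT_LP was below WT_VP, with a difference of -2.21 as deposited, -1.81 after joint quantile normalization and -1.85 after centring (limma adjusted p at most 2.62e-07). Slc25a4 went the other way between lobes in wild-type arrays, higher in WT_LP than in WT_VP by 0.69, 1.21 and 1.05 under the same scalings. Between KO_LP and KO_VP its direction depended on the scaling, at -0.28, 0.28 and 0.08 (limma adjusted p = 0.0148, 0.0177 and 0.445).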
